A study of Mus musculus with 75 samples.

Results

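Cxcl1, Cxcl2, Cxcl3 and Cxcl5 encode the CXC chemokines that draw neutrophils into inflamed tissue, and their mRNA was followed here in cells labelled as enteric glia. The 4 genes were chosen by symbol, and each has 1 row among the 21051 gene symbols of the table for untreated mice and the 2 h experiment and among the 21076 symbols of the 24 h table. Their proteins carry the ELR motif and bind the receptor CXCR2 on neutrophils, which move up the gradient. The genes are nearly silent in resting tissue and are switched on by Toll-like receptor 4, interleukin-1 or tumour necrosis factor through NF-kappaB, and their mRNAs are short-lived unless stabilised. Cxcl1 and Cxcl2 are textbook early products of endotoxin-exposed macrophages, fibroblasts, endothelium and glia, while Cxcl5 is better known from epithelial and mesenchymal cells.

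The series holds 75 RNA-seq libraries of adult mice that carry a green fluorescent reporter transgene, which all groups share. In untreated reporter mice, libraries came from the myenteric plexus (between the muscle layers) of the colon (n = 5) and small intestine (n = 6) and from the submucosal plexus of the colon (n = 5) and small intestine (n = 6). The injected groups gave myenteric libraries only, after 1 intraperitoneal dose of PBS or of 2 mg/kg LPS (lipopolysaccharide, the endotoxin of E. coli O111:B4): reporter mice at 2 h, with 4 libraries for each treatment and region, and at 24 h reporter mice that were Gpr37WT or Gpr37-/-, the latter lacking the G protein-coupled receptor Gpr37. At 24 h wild-type small intestine gave 6 libraries with PBS and 4 with LPS, wild-type colon 4 and 5, knockout small intestine 4 and 5, and knockout colon 5 and 4. Mouse numbers in the labels tie the colon and small intestine of one animal together at 24 h. No label says that the untreated and 2 h libraries come from separate animals, so their p-values measure the spread between these libraries. How the cells were separated from the tissue is not given in the sources used here.

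Libraries held 1990744 to 33238565 counts, and levels are given as CPM, counts scaled to equal library sizes with trimmed-mean (TMM) factors. The glial markers Sox10, S100b, Gfap, Foxd3, Erbb3 and Entpd2 were detected in every group. The untreated submucosal libraries also held large sums for T and B cell markers, up to 131585 CPM. Gpr37 had at most 9 counts in the 18 knockout libraries and at least 33 in the 10 PBS libraries labelled wild type. In the 9 LPS libraries labelled wild type it ranged from 0 to 124 counts: mouse 3 had 0 small intestinal and 2 colonic counts, and mice 5 and 8 had 0 in the colon, although mouse 8 had 100 in the small intestine. Mouse 5 gave no second library, so the genotypes of mice 3 and 5 are given as labelled, and results that change without either are given both ways. At 24 h the 12 libraries of mice numbered 10 and below held a median of 15.4% mitochondrial counts, against 4.58% in the 25 libraries of mice numbered 11 and above. These are bulk samples, so fewer cells of a type and less RNA per cell cannot be told apart.

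The 4 genes lie on one strand of chromosome 5 within 147 kb (GRCm38.p6), which holds 7 protein-coding genes in the order Cxcl5, Ppbp, Pf4, Cxcl3, Cxcl15, Cxcl1, Cxcl2. Cxcl5 spans chr5:90759298-90761625, Cxcl3 chr5:90786101-90788093, Cxcl1 chr5:90891245-90893121 and Cxcl2 chr5:90903899-90905938. The 120 bases before the start site are shown for Cxcl1, Cxcl2 and Cxcl3 because these members share a sequence there, with that run, which has the form of a kappaB element (the DNA site of NF-kappaB), and the TATA motif TATAAA in capitals, each 5′ to 3′ on the plus strand, from RefSeq on GRCm38.p6 (chr5:90891125-90891244, chr5:90903779-90903898 and chr5:90785981-90786100).
Cxcl1: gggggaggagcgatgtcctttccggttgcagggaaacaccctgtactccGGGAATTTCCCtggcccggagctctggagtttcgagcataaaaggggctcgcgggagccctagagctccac
Cxcl2: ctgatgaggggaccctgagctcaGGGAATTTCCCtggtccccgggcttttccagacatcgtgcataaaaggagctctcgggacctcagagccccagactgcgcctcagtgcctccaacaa
Cxcl3: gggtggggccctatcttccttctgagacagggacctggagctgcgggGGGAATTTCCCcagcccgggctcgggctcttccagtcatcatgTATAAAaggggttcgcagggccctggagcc
The run, GGGAATTTCCC, is the longest that the 3 upstream windows share, at 11 bases, so its presence in them is how it was found. It was searched on both strands from 250 bases before to 50 bases after each start and begins at position -71 in Cxcl1, -97 in Cxcl2 and -73 in Cxcl3. It occurred in 14 of 32851 RefSeq promoter windows, or 0.0426%. TATAAA was found in Cxcl3 and in 13.6% of all windows. A match describes letters and is no evidence of binding. Cxcl5 was not in the promoter table.

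At 2 h, Cxcl1 and Cxcl2 had risen by 7.60 to 9.33 log2 units in both regions, the 4 LPS libraries lying far above every PBS library, while Cxcl5 was beginning to appear and Cxcl3 stayed at the edge of detection. The question is what a single dose of endotoxin does to these genes in the myenteric plexus within hours. Of the 4 genes, 3 passed the test as higher in small intestine and 3 in colon, where 1.08% and 0.74% of the 13107 tested genes did (edgeR quasi-likelihood test, Benjamini-Hochberg adjusted p under 0.05). Cxcl2, Cxcl3 and Cxcl5 passed the filter on low counts only through their LPS libraries, so the filter itself selected them for differing. Without these members only Cxcl1 remains, and it was called in both regions.

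**Figure D1:**
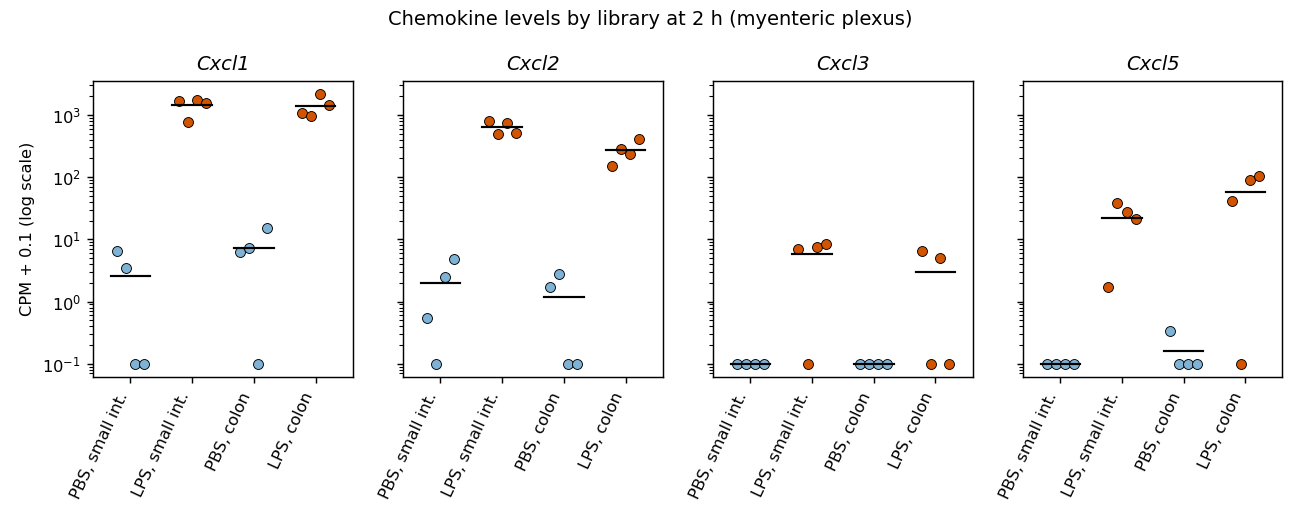
Level of each chemokine in every library at 2 h (vertical axis, CPM + 0.1, log scale), by treatment and region of the myenteric plexus; points are libraries and bars group means of 4. Cxcl1 and Cxcl2 in LPS libraries lie above every PBS library in both regions, and Cxcl3 was at 0 in all PBS libraries.

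Cxcl1, the main neutrophil chemokine of the mouse, stood at 0, 0, 3.41 and 6.41 CPM in the PBS libraries of the small intestine and at 777, 1572, 1656 and 1739 CPM after LPS. The groups did not overlap, and the mean rose from 2.45 ± 3.09 to 1436 ± 445 CPM (SD, n = 4 each), a log2 fold change of 9.33 ± 1.19 (SE, adjusted p = 0.000261, edgeR). In the colon the PBS libraries had 0, 6.06, 7.13 and 14.9 CPM and the LPS libraries 970, 1062, 1432 and 2127 CPM. These groups did not overlap either, and the log2 fold change was 7.60 ± 1.09 (adjusted p = 0.00147, edgeR). Cxcl1 stayed called without any single library, at 11.17 in the small intestine without PBS replicate 1 and 8.32 in the colon without PBS replicate 4.

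Cxcl2, its close relative and a main product of activated macrophages, stood at 0, 0.442, 2.41 and 4.79 CPM with PBS and at 487, 515, 745 and 798 CPM with LPS in the small intestine, again without overlap (log2 fold change 8.15 ± 0.87, adjusted p = 5.38e-05, edgeR). In the colon it had 0, 0, 1.63 and 2.72 CPM with PBS and 148, 231, 282 and 411 CPM with LPS (7.96 ± 0.90, adjusted p = 0.000202, edgeR). Both members thus separated all 4 LPS from all 4 PBS libraries in both regions. Of all tested genes, 3.44% did so in small intestine and 2.25% in colon. These shares can be set beside Cxcl1 only, since Cxcl2 passed the low-count filter only through its LPS libraries. Cxcl2 moved to 9.12 in the small intestine without PBS replicate 4 and to 8.77 in the colon without PBS replicate 2, still called. LPS levels of Cxcl2 were 487 to 798 CPM in the small intestine and 148 to 411 CPM in the colon, and those of Cxcl1 overlapped between regions. The share of all genes that separate the LPS libraries of the regions was not counted. The region difference of the LPS response itself was not called for any member: it was -1.72 ± 1.27 log2 for Cxcl1 (colon minus small intestine, adjusted p = 1, edgeR) and -0.19 ± 1.22 for Cxcl2, with 0 of 13107 genes called and 452 at an unadjusted p under 0.05. Single PBS libraries moved the Cxcl1 value to -3.57 (small intestine replicate 1) or -1.03 (colon replicate 4) and the Cxcl2 value to -1.16 (small intestine replicate 4) or 0.62 (colon replicate 2).

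Cxcl5 was at 0 counts in all 4 PBS libraries of the small intestine and at 1.64, 21.1, 27.4 and 38.6 CPM after LPS, at least 28.7-fold higher against a floor of 3 counts per library (adjusted p = 0.035, edgeR). In the colon a single count was seen among the 4 PBS libraries, and LPS libraries had 0, 40.8, 90.8 and 103 CPM, at least 68.7-fold higher (adjusted p = 0.0368, edgeR). Replicate 2 of the colon with LPS, at 0 for both Cxcl5 and Cxcl3, had 970 CPM of Cxcl1. Both Cxcl5 calls were lost with sex as a covariate (adjusted p = 0.0584 in small intestine and 0.0621 in colon) and when any PBS library of the region was left out (0.0865 to 0.119 and 0.133 to 0.189). LPS replicates 2, 3 and 4 of the small intestine (0.0645 to 0.0741) and 1, 3 and 4 of the colon (0.0526 to 0.0875) also ended the call of Cxcl5 when left out.

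Cxcl3, whose product acts on the same receptor, was at 0 in all 8 PBS libraries. In the small intestine LPS libraries it had 0, 6.96, 7.41 and 8.21 CPM, and in the colon 0, 0, 4.93 and 6.47 CPM. Its mean was at least 7.32-fold higher in the small intestine (adjusted p = 0.461) and at least 3.34-fold higher in the colon (adjusted p = 0.546, edgeR), and neither was called.

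Per kilobase of exon (GENCODE vM21 exon unions of 1875, 2068, 3498 and 1863 bases for Cxcl1, Cxcl2, Cxcl3 and Cxcl5), Cxcl1 led the set at 2 h. Its level in LPS libraries was 766 ± 237 CPM per kb in small intestine and 745 ± 280 in colon, against 308 ± 76.5 and 130 ± 53.3 for Cxcl2 and 11.9 ± 8.32 and 31.4 ± 25.4 for Cxcl5 (SD, n = 4). Cxcl3 averaged 1.61 and 0.814 CPM per kb. The unions pool the exons of all annotated transcripts, and those of Cxcl2 and Cxcl3 are longer than the RefSeq spans of these genes. They are therefore not lengths of single transcripts, and levels per kilobase are approximate between genes, most of all for Cxcl3.

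At 24 h, Cxcl1 and Cxcl2 were still higher with LPS than with PBS in wild-type mice, and Cxcl5 had reached the same range. Mean Cxcl1 after LPS was lower than at 2 h in both regions (693 against 1436 CPM in the small intestine, 636 against 1398 CPM in the colon). Mean Cxcl2 was lower in the small intestine (215 against 636 CPM), and in the colon its 24 h libraries, at 19.8 to 1090 CPM, spanned those at 2 h, at 148 to 411 CPM. The 2 tables were deposited separately, so levels at 2 h and 24 h are set side by side and no test was made between them. In the wild-type groups, 3 of the 4 genes passed the test as higher in the small intestine, where 4.17% of 14883 tested genes did, and 3 in the colon, where 3.95% did. In the knockout groups 1 passed in the small intestine (0.531% of genes) and 2 in the colon (0.638%). These counts differ between genotypes without a tested difference: none of the 4 passed the test of the genotype difference in the LPS response, in either region.

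**Figure D2:**
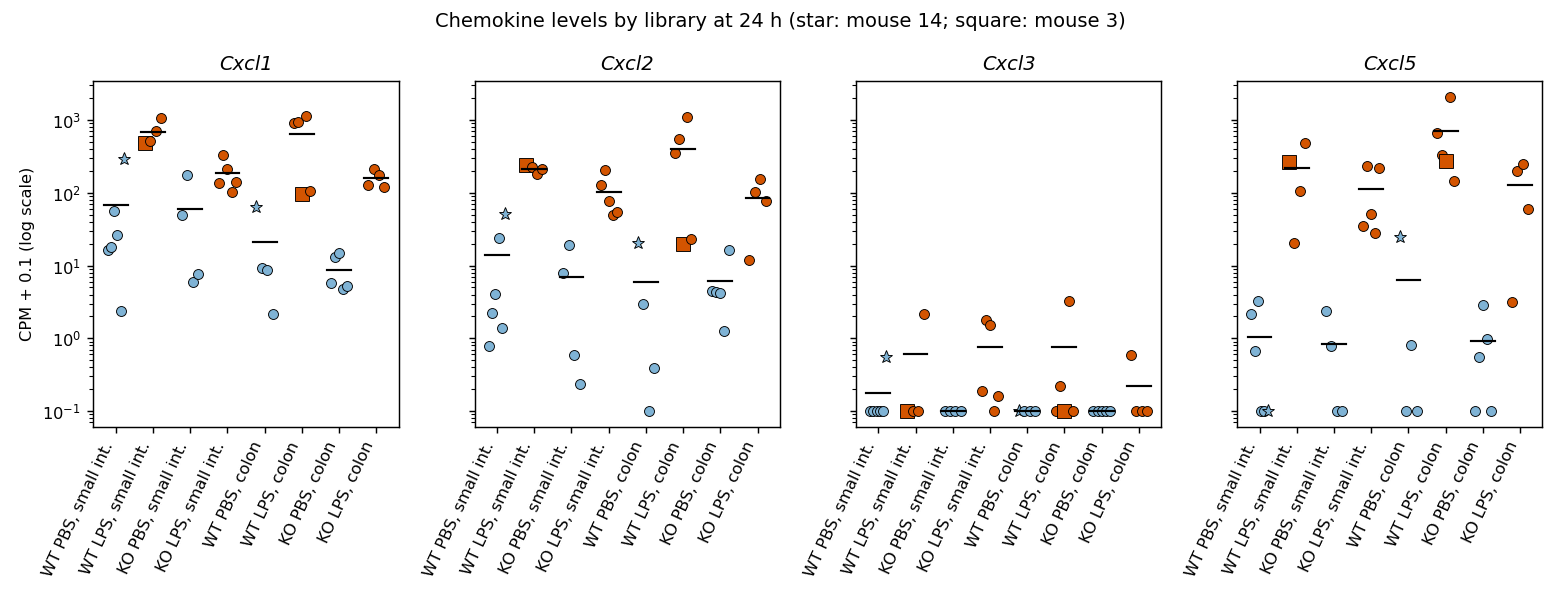
Level of each chemokine in every library at 24 h (vertical axis, CPM + 0.1, log scale), by genotype, treatment and region; points are libraries, bars group means, stars mouse 14 and squares mouse 3. Mouse 14 is the highest PBS library for Cxcl1 and Cxcl2 in both regions (289 and 63.2 CPM of Cxcl1), and for Cxcl1 and Cxcl2 in the wild-type LPS colon mice 3 and 8 lie apart from mice 5, 13 and 16.

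Cxcl1 in wild-type small intestine ranged from 2.25 to 289 CPM with a median of 21.8 CPM in 6 PBS libraries and stood at 483, 513, 697 and 1078 CPM in the 4 LPS libraries. The groups did not overlap, although mouse 14 (PBS), at 289 CPM, stood far above the next PBS library, at 56.5 CPM. The log2 fold change was 3.35 ± 0.94 (adjusted p = 0.0253, edgeR), and 4.91 without mouse 14 or 4.82 with mouse as a random effect in limma. Leaving out PBS mouse 19, 22 or 24 or LPS mouse 13 moved the adjusted p of Cxcl1 to between 0.0515 and 0.0558. In wild-type colon the PBS libraries had 2.03, 8.55, 9.09 and 63.2 CPM, the highest again from mouse 14, and LPS libraries had 95.2, 104, 901, 945 and 1134 CPM. The groups did not overlap and the log2 fold change was 4.94 ± 1.17 (adjusted p = 0.00881, edgeR), or 6.61 without mouse 14. All 3 wild-type colon calls (Cxcl1, Cxcl2 and Cxcl5) were lost when only these groups were fitted, without the spread of the other 6 (adjusted p = 0.0539, 0.117 and 0.0868, edgeR).

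In knockout small intestine Cxcl1 had 5.86, 7.55, 49.5 and 175 CPM with PBS and 104, 137, 142, 210 and 328 CPM with LPS. Mouse 15 (PBS) lay above 3 of the 5 LPS libraries, and the difference was not called (1.63 ± 1.00, adjusted p = 0.59, edgeR). Without mouse 15 it was 3.21 (adjusted p = 0.263), and limma with mouse as a random effect gave 3.04 (adjusted p = 0.0929). In knockout colon, PBS libraries had 4.65, 5.19, 5.72, 13.1 and 14.7 CPM and LPS libraries 120, 130, 177 and 215 CPM, without overlap (4.20 ± 1.05, adjusted p = 0.0483, edgeR). That call was lost when only mice numbered 11 and above were fitted (4.31, adjusted p = 0.141) and without any single library other than LPS mouse 11 (adjusted p from 0.0663 to 0.117), with no filter (0.0521), with the mouse-number division as a covariate (0.0509) and with mouse as a random effect in limma (0.273).

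Cxcl2 in wild-type small intestine had a median of 3.06 CPM and a range of 0.68 to 51.2 CPM with PBS and stood at 179, 215, 223 and 241 CPM with LPS, the tightest of the LPS groups. The groups did not overlap and the log2 fold change was 3.96 ± 1.23 (adjusted p = 0.0427, edgeR), a call lost without mouse 3 (3.91, adjusted p = 0.0646), among mice numbered 11 and above (3.67, adjusted p = 0.0886) and without any single library of these groups other than PBS mouse 14 (adjusted p from 0.0548 to 0.0844). Without mouse 14 the value was 5.19 (adjusted p = 0.0108). In wild-type colon it had 0, 0.29, 2.84 and 20.5 CPM with PBS and 19.8, 23.0, 356, 542 and 1090 CPM with LPS. Mouse 3 (LPS) lay below mouse 14 (PBS), so the groups overlapped, and the log2 fold change was 6.13 ± 1.59 (adjusted p = 0.0151, edgeR) or 8.74 without mouse 14. The Cxcl2 call was lost without PBS mouse 19 (5.90, adjusted p = 0.0593), and the value was 5.34 without LPS mouse 5.

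In knockout mice Cxcl2 was not called by edgeR in either region. In the small intestine it had 0.132, 0.499, 7.84 and 19.0 CPM with PBS and 48.9, 53.7, 77.4, 128 and 204 CPM with LPS, which did not overlap (3.90 ± 1.42, adjusted p = 0.226), and DESeq2 called it (adjusted p = 0.0405). Without PBS mouse 15 the difference was 5.26 (adjusted p = 0.206, edgeR), and limma with mouse as a random effect gave 5.74 (adjusted p = 0.197). In the colon it had 1.16, 4.13, 4.20, 4.42 and 16.0 CPM with PBS and 11.7, 77.8, 102 and 153 CPM with LPS, with overlap at mouse 11 (3.88 ± 1.33, adjusted p = 0.204, edgeR). Without PBS mouse 7 the colon value was 4.68 (adjusted p = 0.181).

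Cxcl5 rose in all 4 comparisons at 24 h, and its LPS libraries lay above every PBS library of the same group in each. In wild-type small intestine the PBS libraries had 0 to 3.11 CPM (median 0.283) and the LPS libraries 20.3, 107, 262 and 486 CPM (log2 fold change 7.85 ± 1.54, adjusted p = 0.00113, edgeR, with 8.80 without PBS mouse 23 and 7.16 without LPS mouse 13). In wild-type colon PBS libraries had 0, 0, 0.704 and, in mouse 14, 24.4 CPM, and LPS libraries had 144, 278, 333, 667 and 2090 CPM, the highest in mouse 5 (6.83 ± 1.72, adjusted p = 0.0128, edgeR, and 11.09 without mouse 14 or 5.85 without mouse 5).
In knockout small intestine PBS libraries had 0, 0, 0.678 and 2.28 CPM and LPS libraries 27.6, 34.3, 50.9, 217 and 233 CPM (7.30 ± 1.80, adjusted p = 0.0443, edgeR). In knockout colon PBS libraries had 0, 0, 0.447, 0.889 and 2.80 CPM and LPS libraries 3.07, 60.6, 202 and 250 CPM (7.12 ± 1.64, adjusted p = 0.0242, edgeR). Both knockout calls of Cxcl5 were lost among mice numbered 11 and above (adjusted p = 0.0846 and 0.123), and the small intestine call also without mice 14 and 15 (adjusted p = 0.0886). Leaving out any single library but LPS mouse 11 ended the small intestine call (adjusted p from 0.0578 to 0.145), with a value of 9.08 without PBS mouse 12, and leaving out PBS mouse 7, 12, 15 or 20 or LPS mouse 2 or 17 ended the colon call (adjusted p from 0.0555 to 0.0851). With only the compared groups fitted the adjusted p of Cxcl5 was 0.0681 and 0.114 in knockout small intestine and colon, and with mouse as a random effect in limma 0.141 (a value of 8.86) and 0.406. Without PBS mouse 1 the knockout colon value was 8.14, still called. Separation of all LPS from all PBS libraries was seen for 3 of 4 members in wild-type small intestine (6.2% of tested genes), 2 in knockout small intestine (3.1%), 2 in wild-type colon (4.34%) and 2 in knockout colon (2.07%).

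Cxcl3 stayed near 0 at 24 h. It was above 3 counts in 6 of 37 libraries, at most 3.19 CPM (14 counts, mouse 5, wild-type colon with LPS), and was not called in any comparison.

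**Figure D3:**
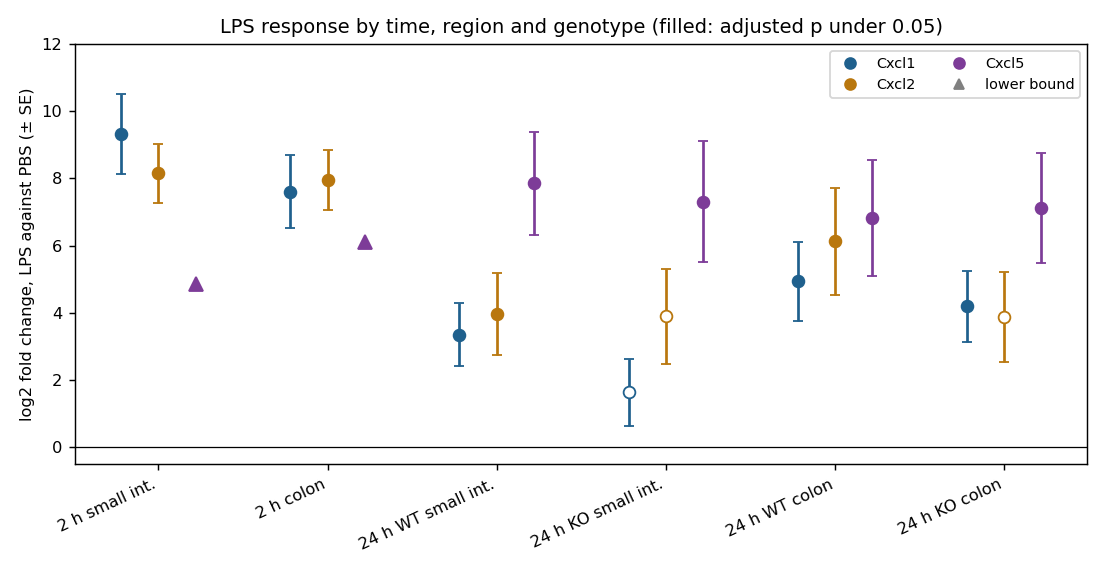
Log2 fold change of LPS against PBS (vertical axis, ± SE) for Cxcl1, Cxcl2 and Cxcl5 in the 6 treatment comparisons; filled points passed adjusted p under 0.05, and triangles are lower bounds where every PBS library held 3 counts or fewer. In wild-type small intestine Cxcl1 is at 9.33 at 2 h and 3.35 at 24 h, and Cxcl5 lies between 6.83 and 7.85 at 24 h in every group.

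The makeup of the set differed between the 2 times. Per kilobase, Cxcl5 made up 0 to 5.41% of the summed level of the 4 chemokines in the 8 LPS libraries at 2 h (median 2.11%) and 2.15 to 71.2% in the 18 LPS libraries at 24 h (median 27.5%). Of the 18, 16 lay above the highest 2 h library, and the exceptions were mouse 8 in wild-type small intestine and mouse 11 in knockout colon. In wild-type colon Cxcl5 had a median share of 49.8%, ahead of Cxcl1 at 38.7%, and in wild-type small intestine Cxcl1 had 65.4% and Cxcl5 19.2%. The 2 times come from separate experiments and tables, so time and experiment cannot be told apart. Shares also depend on the exon unions used, which are not lengths of single transcripts.

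**Figure D4:**
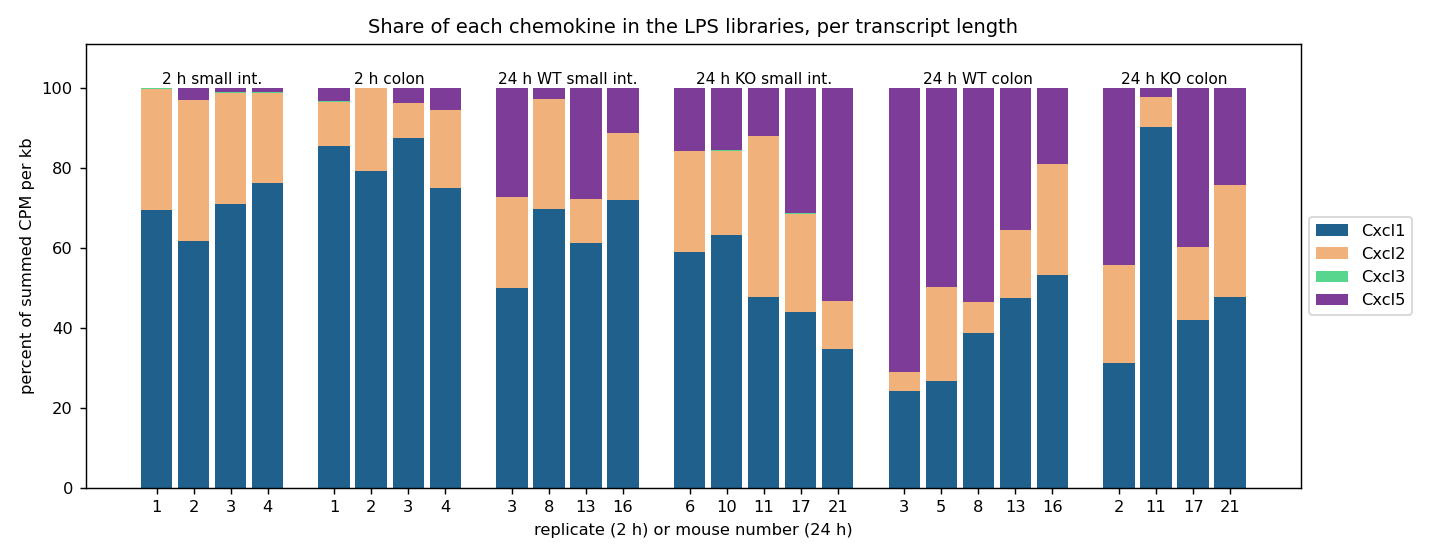
Share of each chemokine in the summed CPM per kb of the 4 genes (vertical axis, percent) in every LPS library (horizontal axis), in 6 groups. Cxcl5 takes at most 5.41% at 2 h and up to 71.2% at 24 h, and Cxcl3 is barely visible.

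Levels after LPS at 24 h were set against genotype. Knockout means were lower than wild-type means for Cxcl1, Cxcl2 and Cxcl5 in both regions, and none of these differences was called. In the small intestine Cxcl1 had 184 ± 89.3 CPM (n = 5) in knockout and 693 ± 274 CPM (n = 4) in wild-type libraries, and every wild-type library lay above every knockout library, as for 1.61% of tested genes. The log2 difference was -1.91 ± 0.96 (adjusted p = 0.672, edgeR, where 2 of 14883 genes, or 0.0134%, were called). The response difference, which subtracts the PBS levels, was -1.72 ± 1.32 for Cxcl1 (adjusted p = 1) and ran from -3.21 without PBS mouse 14 to -0.17 without PBS mouse 15, with 0 genes called and 576 at an unadjusted p under 0.05. In the colon Cxcl1 had 160 ± 43.9 CPM in knockout and 636 ± 497 CPM in wild-type libraries, with overlap because mice 3 and 8 lay below all knockout libraries (-1.99 ± 1.01, adjusted p = 0.32, edgeR).

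Cxcl2 and Cxcl5 overlapped between genotypes in both regions. For Cxcl2 the log2 differences after LPS were -1.07 ± 1.21 in small intestine and -2.24 ± 1.30 in colon (adjusted p = 0.923 and 0.381, edgeR), and without mouse 5 the colon value was -1.45. For Cxcl5 they were -0.95 ± 1.27 and -2.45 ± 1.38 (adjusted p = 0.939 and 0.369), with -1.46 in the colon without mouse 5, -3.78 in the colon by limma with mouse as a random effect (adjusted p = 0.0567) and -0.23 in the small intestine without LPS mouse 13, where 63 of 14883 genes (0.423%) were called in the colon in either direction. The response differences in the colon were -0.75 ± 1.37 for Cxcl1, -2.25 ± 1.80 for Cxcl2 and 0.30 ± 1.81 for Cxcl5 (adjusted p = 0.876, 0.631 and 0.976, edgeR, 0 genes called and 2006 at an unadjusted p under 0.05). Without mouse 14 they were -2.38, -4.84 and -3.92, the last with its sign turned, and without mouse 5 they were -0.43, -1.46 and 1.27. None of the 3 was called under the other settings tried, in which the smallest adjusted p was 0.297. In PBS libraries no member was called between genotypes (adjusted p = 1 for all members in both regions, 0 genes called, 256 and 626 at an unadjusted p under 0.05).

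Regions were compared within genotype. The LPS response of Cxcl1 differed between colon and small intestine by 1.59 ± 1.35 log2 in wild-type and 2.56 ± 1.36 in knockout mice, that of Cxcl2 by 2.17 ± 1.75 and -0.02 ± 1.79, and that of Cxcl5 by -1.02 ± 1.82 and -0.18 ± 1.94. None was called (adjusted p from 0.835 to 1, edgeR, 0 genes called in either genotype, with 1123 and 614 at an unadjusted p under 0.05). These values depend on single libraries, of PBS and of LPS mice. Without the small intestine library of mouse 14 the wild-type values were 0.056 for Cxcl1 and 0.95 for Cxcl2, and without its colon library 3.24 and 4.75. The wild-type value for Cxcl5 turned to 3.46 without mouse 14, and without mouse 5 those for Cxcl2 and Cxcl5 were 1.38 and -2.01. Without the small intestine library of mouse 15 the knockout values were 1.01 for Cxcl1 and -1.38 for Cxcl2, and without colon PBS mouse 7 that for Cxcl2 was 0.76. The knockout value for Cxcl5 was -1.93 without small intestine PBS mouse 12 and 0.84 without colon PBS mouse 1.

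Ordered by mean, Cxcl1 in the injected groups ran from the 2 h LPS groups (1436 ± 445 and 1398 ± 525 CPM) through the wild-type LPS groups at 24 h (693 ± 274 and 636 ± 497) and the knockout LPS groups (184 ± 89.3 and 160 ± 43.9) to the PBS groups (2.45 to 67.9 CPM). Within each pair of LPS groups the small intestine and colon differed by less than their SDs. The order is of means only: the 2 times are separate experiments, and the difference between genotypes after LPS was not called in either region. Some wild-type colon LPS libraries lay below every knockout colon LPS library.

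The receptors and neighbours of the set were examined as a list of Cxcr1, Cxcr2, Ackr1, Ppbp, Pf4 and Cxcl15. None was called with LPS in any of the 6 comparisons, in which 2 or 3 of the 6 passed the filter. Cxcr2, the receptor of all 4 chemokines on neutrophils, was above 3 counts in 0 of 16 libraries at 2 h and in 6 of 37 at 24 h, all of them LPS libraries, with at most 84 counts. Pf4, a platelet chemokine gene that lies between Cxcl5 and Cxcl3, had 52.0 CPM with PBS and 63.3 CPM with LPS in the small intestine at 2 h and was not called. Cxcl15, between Cxcl3 and Cxcl1, never exceeded 3 counts.

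Among 15 inducers and sensors, 14 of which were tested, 4 rose in small intestine and 3 in colon at 2 h, beside 1.08% and 0.74% of all genes. Cd14, the co-receptor that hands LPS to Toll-like receptor 4, rose by 4.63 ± 0.61 and 3.05 ± 0.58 log2 (adjusted p = 0.000368 and 0.0129, edgeR). Il1b, a cytokine that induces these chemokines, reached 258 CPM in small intestine and 89.3 CPM in colon from 3.01 and 0.167 CPM (adjusted p = 0.00205 and 0.00178, edgeR). Il1b and Il1a, called in both regions, passed the low-count filter only through LPS libraries, as did Tnf. Without those 3 genes the counts were 2 in small intestine and 1 in colon. Tlr4 itself was not called at either time. At 24 h, 6 rose in wild-type small intestine, 2 in wild-type colon, 2 in knockout small intestine and 1 in knockout colon, beside 4.17%, 3.95%, 0.531% and 0.638% of all genes, and Il1b was called in none of these 4. No list median is given at 2 h, since Il1a, Il1b and Tnf passed the filter there only through LPS libraries.

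Among 14 genes of NF-kappaB signalling and mRNA stability, all tested, 8 rose in small intestine and 5 in colon at 2 h, against the same 1.08% and 0.74%. Rel and Zc3h12a passed the filter at 2 h only through LPS libraries, so no list median is given there. Neither was among those called. Nfkbia, the inhibitor that NF-kappaB itself induces, rose by 3.50 ± 0.31 and 3.32 ± 0.31 (adjusted p = 1.56e-05 and 2.25e-05, edgeR), and Tnfaip3, a feedback deubiquitinase, by 6.24 ± 0.99 and 7.35 ± 1.07. Zfp36, which marks chemokine mRNAs for decay, rose by 3.07 ± 0.50 and 3.14 ± 0.50. At 24 h, 6 rose in wild-type small intestine and 9 in wild-type colon, against 0 and 1 in the knockout groups, where the share of all genes called higher was also lower (0.531% and 0.638% against 4.17% and 3.95%), and the knockout against wild-type difference after LPS was called for none of the 14. List medians at 24 h were 1.40, 1.81, 0.58 and 1.25 log2 in the same order, beside medians over all genes of -0.13, -0.03, -0.05 and -0.07.

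Of 9 other genes of neutrophil production and adhesion, 8 were tested (Cxcr4 was not). At 2 h, 2 were called higher in each region, Icam1 and Csf3, and at 24 h 3 in wild-type small intestine and 2 in each of the other 3 comparisons, beside the shares of all genes given above. Without Csf3, which passed the filter only through LPS libraries, the counts were 1 in each region at 2 h. At 24 h they were then 2 in wild-type small intestine and 1 in knockout colon, the others being unchanged. No list median is given, since Csf3, Csf3r and Csf2 at both times and Sele and Selp at 2 h passed the filter only through LPS libraries. Icam1, the endothelial and stromal ligand that neutrophils grip, rose in all 6 comparisons, by 2.11 ± 0.51 (knockout small intestine, 24 h, adjusted p = 0.0418) to 5.74 ± 0.62 log2 (small intestine, 2 h, adjusted p = 5.38e-05, edgeR). Csf3, which encodes the granulocyte growth factor, was at 0 counts in all 8 PBS libraries at 2 h and at 2.01 to 70.1 CPM after LPS in the small intestine and a wide 7.21 to 443 CPM in the colon, and was called in both (adjusted p = 0.045 and 0.0293), but it too passed the low-count filter only through its LPS libraries. At 24 h Csf3 was called in wild-type small intestine and knockout colon. Vcam1, an adhesion molecule gene of endothelium, was not called at 2 h and rose at 24 h in wild-type small intestine (2.82 ± 0.41), knockout small intestine (2.26 ± 0.45) and wild-type colon (2.07 ± 0.45), with adjusted p of at most 0.00762 (edgeR), and had 1.67 ± 0.42 in knockout colon (adjusted p = 0.0524). Cxcl12, Csf2, Csf3r, Sele and Selp were not called in any of the 6.

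Marker lists were set beside these results. At 2 h the summed level of 10 neutrophil markers was 8.64 to 159 CPM in LPS and 0.975 to 11.5 CPM in PBS libraries of the small intestine. In the colon it was 0 to 8.25 against 0.919 to 7.67 CPM, and the treatments overlapped in both regions. Macrophage marker sums also overlapped, at 260 to 690 CPM with LPS and 349 to 1809 CPM with PBS in the colon and 315 to 1550 and 364 to 2149 CPM in the small intestine, and no gene of the macrophage or fibroblast list was called at 2 h. T and B cell marker sums in the small intestine were 14.1 to 914 CPM with LPS and 6.42 to 17.9 CPM with PBS, with Jchain, an antibody-joining chain gene, called higher (adjusted p = 0.0478, edgeR), and in the colon 0.821 to 62.4 against 16.8 to 60.4 CPM. At 24 h neutrophil marker sums did not overlap between treatments in knockout small intestine (11.8 to 1858 CPM with LPS, 0.662 to 5.70 CPM with PBS). They overlapped in wild-type small intestine (19.2 to 891 against 2.05 to 20.1 CPM), wild-type colon (13.4 to 2336 against 1.06 to 152 CPM) and knockout colon (5.08 to 508 against 0.243 to 60.0 CPM). No count of called neutrophil markers is given at 24 h, since 8 of the 9 tested passed the low-count filter only through LPS libraries. Among the wild-type colon LPS libraries, mice 3 and 8 had 2336 and 1971 CPM of neutrophil markers and 95.2 and 104 CPM of Cxcl1. Mice 5, 13 and 16 had 13.4 to 69.6 CPM of neutrophil markers and 901 to 1134 CPM of Cxcl1. Spearman's correlations with the mean of each marker list were taken over libraries centred on their group means, which share depth and animals. At 24 h (37 libraries) those with neutrophil markers were -0.11 for Cxcl1, 0.04 for Cxcl2 and 0.18 for Cxcl5, and the values farthest from 0 were 0.48 for Cxcl5 with mesothelial and -0.41 for Cxcl1 with smooth muscle markers. At 2 h (16 libraries) those with the 3 neutrophil markers tested were -0.48 for Cxcl1, 0.29 for Cxcl2 and -0.39 for Cxcl5. These 3 markers, Cxcl2 and Cxcl5 passed the low-count filter only through LPS libraries. For the same 3 chemokines the values farthest from 0 were 0.62 for Cxcl2 with macrophage and 0.53 for Cxcl1 with neuronal markers. The lowest values beside that of Cxcl1 with neutrophil markers were -0.45 for Cxcl2 with epithelial and -0.44 for Cxcl1 with mesothelial markers. These extremes were picked from all lists. No value is given for Cxcl3, which was at 0 in every PBS library and in some LPS libraries at 2 h. Of the fibroblast list at 24 h, 3 of 6 genes were called lower in wild-type small intestine, where 3% of all genes were, and 3 of 6 in wild-type colon, where 4% were. Fibroblast sums in wild-type colon were 704 to 8989 CPM with LPS and 14575 to 23412 CPM with PBS, and mesothelial sums in wild-type small intestine 173 to 420 against 568 to 2770 CPM, neither overlapping. Sums of the 2 markers of interstitial cells of Cajal, the pacemaker cells of the gut wall, did not overlap in wild-type colon either (10.7 to 56.0 CPM with LPS and 77.8 to 308 CPM with PBS), with 0 of 2 called. In the knockout 0 of 6 fibroblast genes were called lower in either region, and fibroblast sums overlapped, at 1546 to 16099 CPM with LPS and 2882 to 17630 CPM with PBS in the colon and 1563 to 8799 and 1487 to 12879 CPM in the small intestine. Fibroblast sums in wild-type small intestine (682 to 9915 and 1939 to 13135 CPM) and mesothelial sums in knockout small intestine (299 to 966 and 24.2 to 3013 CPM) overlapped too. The part of any cell type in the chemokine results was not tested.

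The genes whose pattern over the 37 libraries at 24 h was most like that of Cxcl1, by Spearman's correlation among 10543 genes of average log2 CPM of at least 3, were Nfkbia (0.91), Gadd45b (0.88) and Sod2 (0.88). For Cxcl2 they were Ccl2 (0.91), Mt2 (0.88) and Sod2 (0.88), and for Cxcl5 Sod2 (0.89), Cdkn1a (0.89) and Nfkbia (0.88). Cxcl1 and Cxcl2 had 0.91 with each other, and 0.72 after centring on group means, whereas at 2 h the pair had 0.74 and, after centring, -0.26. Over the 16 libraries at 2 h, Cxcl1 was most like Batf (0.95) and Cxcl2 most like Cd14 (0.94). These libraries share treatment groups and depth, and the values are descriptions.

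In untreated mice Cxcl2 was called higher in the submucosal than in the myenteric plexus of both regions. Of the 3 members that passed the filter (Cxcl3 did not), 1 was called in the colon, where 10.7% of the 14090 tested genes were called higher, and 1 in the small intestine, where 22.3% were. A count of 1 in 3 is not far from the small intestine share, so it does not set these genes apart there. In the colon Cxcl2 had 0.525, 0.818, 1.21, 1.86 and 3.48 CPM in myenteric and 1.90, 41.4, 64.0, 75.5 and 85.4 CPM in submucosal libraries (log2 fold change 5.07 ± 1.01, adjusted p = 0.00164, edgeR). Submucosal replicate 2 lay within the myenteric range. In the small intestine Cxcl2 ran from 3.00 to 9.07 CPM (median 5.56) in 6 myenteric and from 4.31 to 254 CPM (median 33.5) in 6 submucosal libraries, with overlap (3.79 ± 0.85, adjusted p = 0.00108, edgeR, and 2.99 without submucosal replicate 2).

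**Figure D5:**
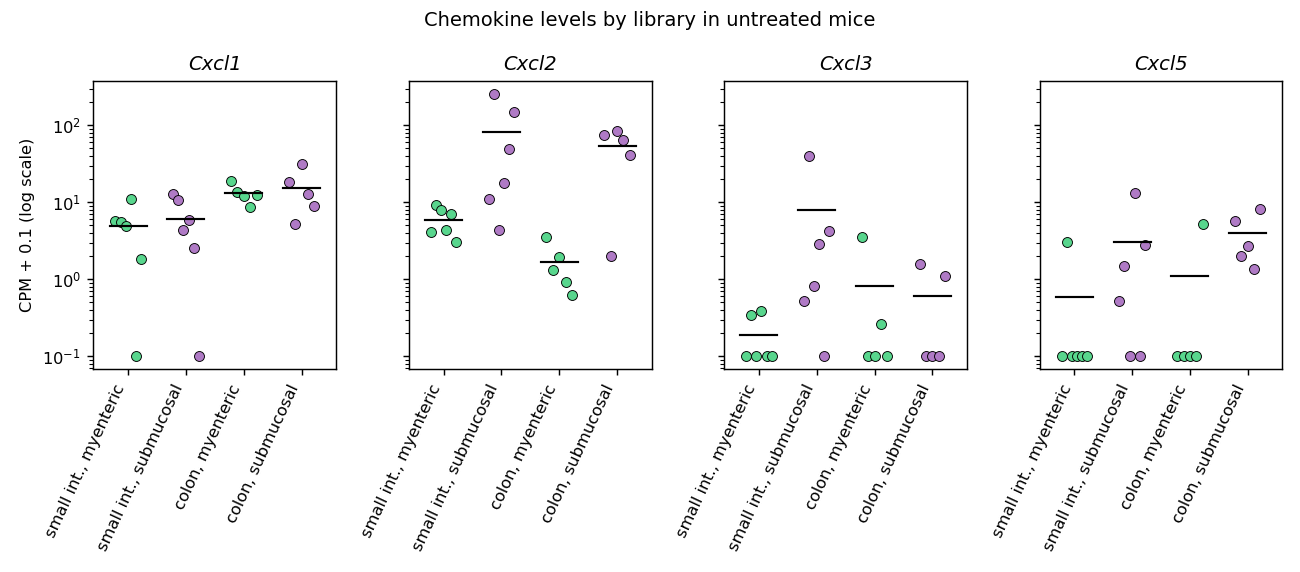
Level of each chemokine in every untreated library (vertical axis, CPM + 0.1, log scale), by region and plexus; points are libraries and bars group means. Cxcl2 reaches 85.4 CPM in colon and 254 CPM in small intestine submucosal libraries, and Cxcl1 overlaps between the plexuses of both regions.

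Markers of several cell types moved with this site difference, some higher and some lower. Of the macrophage markers, 9 of 10 were called higher in the submucosal colon and 10 of 10 in the submucosal small intestine (10.7% and 22.3% of all genes), with sums of 112 to 5657 and 2416 to 13521 CPM against 108 to 618 and 149 to 2573 CPM in the myenteric libraries. All 4 T and B cell markers were called higher in both, with sums of 729 to 44885 and 13941 to 131585 CPM against 2.96 to 295 and 3.33 to 1084 CPM. Neutrophil marker sums were 29.6 to 94.7 and 7.41 to 136 CPM against 0 to 3.68 and 0 to 39.7 CPM, with 2 and 1 of 4 tested genes called higher. Epithelial marker sums were 1164 to 4490 and 940 to 3995 CPM against 3.76 to 1341 and 4.90 to 149 CPM, overlapping in the colon, with 2 and 5 of 5 genes called higher. Called lower in the submucosal colon and small intestine (11.1% and 21.2% of all genes) were 6 of 6 smooth muscle markers in both, 5 of 5 mesothelial markers in both, 4 and 5 of 5 neuronal markers, 0 and 4 of 5 endothelial markers, and 2 and 1 of 2 markers of interstitial cells of Cajal. Smooth muscle sums were 792 to 3267 and 72.6 to 1058 CPM against 7099 to 22793 and 1190 to 8337 CPM in the myenteric libraries, and neuronal sums 23.0 to 46.1 and 28.5 to 77.5 CPM against 77.6 to 209 and 449 to 1301 CPM. The glial genes S100b and Gfap were called lower in both (log2 fold changes of -2.39 and -3.14 in the colon and -3.36 and -4.71 in the small intestine), and Sox10 (-3.39), Foxd3, Erbb3 and Entpd2 in the small intestine but not in the colon. The part of these cell types in the Cxcl2 result was not tested. Cxcl1 overlapped between plexuses, at 8.51 to 18.9 CPM in myenteric and 5.13 to 31.2 CPM in submucosal colon and at 0 to 11.0 and 0 to 12.7 CPM in the small intestine, and was not called (0.21 ± 0.83 and 0.35 ± 0.78, adjusted p = 0.88 and 0.747, edgeR). Cxcl5 was at 0 in 4 of 5 and 5 of 6 myenteric libraries and had 1.24 to 7.99 CPM in submucosal colon. It was not called (adjusted p = 0.446 and 0.186, edgeR), but was without myenteric replicate 5 of the colon (adjusted p = 0.0253) and without myenteric replicate 2 of the small intestine (adjusted p = 0.0158), the only myenteric libraries that held it. Cxcl3 was above 3 counts in 6 of 22 libraries and at most at 39.4 CPM, in submucosal small intestine replicate 2, which also had the highest Cxcl2. In the small intestine it had at most 1 count in each myenteric library and 0, 2, 2, 21, 21 and 253 counts in the submucosal libraries, and edgeR without the low-count filter called it (adjusted p = 0.0082).

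Between regions of untreated mice no member was called. In the myenteric plexus Cxcl1 had 13.1 ± 3.78 CPM in colon (n = 5) and 4.75 ± 3.79 CPM in small intestine (n = 6), a log2 difference of 1.47 ± 0.81 (adjusted p = 0.386, edgeR), and Cxcl2 ran the other way, at 1.58 ± 1.17 and 5.85 ± 2.44 CPM (-1.88 ± 0.92, adjusted p = 0.311), where 3.19% of genes were called in either direction. In the submucosal plexus the differences were 1.33 ± 0.80 for Cxcl1 and -0.60 ± 0.79 for Cxcl2 (adjusted p = 0.419 and 0.776, edgeR, 5.18% of genes called in either direction).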

How the data were processed

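Gene expression was measured by RNA-seq (Smart-seq2, without molecular identifiers) in 75 libraries. The deposited values are whole-number counts of reads, 1 row for each gene symbol, in 2 tables. Per the submitters' processing notes, Trim Galore 0.4.4, STAR 2.5.3, DESeq2 and the GRCm38 build were used. The counting tool, annotation and strand setting are not given in the sources used here, so how reads matching more than 1 of these related genes were counted is not known.

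From the deposited counts, each experiment (untreated, 2 h, 24 h) was filtered with filterByExpr, scaled by TMM and fitted over all its groups with edgeR 4.0.16 (quasi-likelihood test, Benjamini-Hochberg over all genes tested, threshold 0.05). In the 24 h table, 25 symbols damaged into dates were left out. The tests were also run on simulated counts with known changes, and the outcome is not given here. Members and gene lists were chosen with earlier results of these data known. Genes named beside the members come from those lists, and likeness names the 3 highest Spearman correlations. A fold against a group with at most 3 counts in every library is a bound against 3 counts per library. Each SE is the absolute log2 fold change divided by the square root of the F statistic of the quasi-likelihood test. It is approximate, above all where a group lies near 0 counts. Depth ran from 1990744 to 33238565 counts, and read counts without molecular identifiers cover counting error only.

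Alternatives were RLE factors, DESeq2 1.42.0, no filter, sex, mouse-number division, fewer groups or mice, single libraries left out, and a replicate block. At 24 h, 15 of 22 mice gave both regions, which pairs the region comparisons: same-mouse libraries had a mean correlation of deviations of 0.115 in wild-type (8 pairs) and 0.128 in knockout mice (7 pairs), and limma 3.58.1 fitted the mouse as a random effect. At 2 h and in untreated mice shared numbers did not reach 0.1 in every pair, so they were not treated as pairs. An item of the labels and marker lists is not reported here.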

Additional observations from a re-analysis of the deposited data

Results flagged for a closer look

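In each group of 4 to 10 libraries, a library was marked when its gap to the nearest other exceeded the 95% limit for a single outlying value, which chance exceeds in about 1 in 20 groups. Of 56 pairs of a chemokine and a group, 16 held such a library. Groups with nearly all libraries at 0 are marked by any library with counts.

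Mouse 14, wild type with PBS, was marked most often. Its Cxcl1 was 289 CPM in the small intestine (next 56.5) and 63.2 CPM in the colon (next 9.09), its Cxcl2 20.5 CPM in the colon (next 2.84), its Cxcl5 24.4 CPM in the colon (next 0.704) and its Cxcl3 0.447 CPM in the small intestine, where the other 5 were at 0. Without mouse 14 the wild-type colon response was 6.61 log2 for Cxcl1, 8.74 for Cxcl2 and 11.09 for Cxcl5.

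Among the other 24 h libraries, wild-type colon mouse 5 with LPS had 2090 CPM of Cxcl5 (next 667) and 3.19 CPM of Cxcl3, wild-type small intestine mouse 13 with LPS had 2.04 CPM of Cxcl3, knockout colon mouse 11 with LPS had 0.484 CPM of Cxcl3 and knockout colon mouse 7 with PBS had 16.0 CPM of Cxcl2 (next 4.42). At 2 h, small intestine replicate 2 with LPS had 0 CPM of Cxcl3 where the next lowest had 6.96.

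In untreated mice, Cxcl3 stood at 39.4 CPM in submucosal small intestine replicate 2 (next 4.09) and at 3.48 CPM in myenteric colon replicate 1. Cxcl5 stood at 13.2 CPM in submucosal small intestine replicate 4 (next 2.73), at 2.94 CPM in myenteric small intestine replicate 2 and at 5.08 CPM in myenteric colon replicate 5, the other myenteric libraries being at 0.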

How the results depend on the processing

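Counts of members called with LPS moved as follows. In wild-type small intestine (3 called) 2 were called without mouse 3 and with only mice numbered 11 and above, both losing Cxcl2. At 2 h (3 called in each region) 2 were called with sex as a covariate, losing Cxcl5. In knockout small intestine (1 called) DESeq2 called 2, and 0 were called with only the groups compared, only mice numbered 11 and above, the replicate block with mouse as a random effect, and without mice 14 and 15. In wild-type colon (3 called) 0 were called with only the groups compared. In knockout colon (2 called) 1 was called with no filter, with only the groups compared and with the mouse-number division as a covariate, and 0 with only mice numbered 11 and above and with the replicate block. Submucosal against myenteric small intestine (1 called) gave 2 with no filter, Cxcl2 and Cxcl3. Leaving out single libraries gave 2 to 3 in both regions at 2 h and in wild-type colon at 24 h. It gave 1 to 3 in wild-type small intestine, 0 to 1 in knockout small intestine, 0 to 2 in knockout colon and 1 to 2 in both submucosal comparisons. The replicate block at 2 h called 2 members in each region and lost Cxcl5 (adjusted p = 0.134 and 0.158, edgeR). At 2 h Cxcl5 could not be fitted in the colon with only the groups compared. The settings without mouse 14 and without mice 14 and 15 were chosen after seeing the data. The cause of these changes was not tested.

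None of the values that changed sign was called. For the genotype difference in LPS response, Cxcl5 in the small intestine became 0.65 with sex and 0.21 with the replicate block, and Cxcl2 became 0.23 in mice numbered 11 and above, 0.024 without mouse 3, 0.043 with the replicate block and 0.073 without mice 14 and 15. Cxcl5 in the colon became -0.22 with sex, -3.81 with the replicate block, -3.92 without mouse 14 and -4.11 without mice 14 and 15. For the region difference, wild-type Cxcl5 became 1.21 with the replicate block, 3.46 without mouse 14 and 3.47 without mice 14 and 15, and knockout Cxcl2 became 0.49 in mice numbered 11 and above. For genotype after PBS in the small intestine, Cxcl1 became 1.31 and Cxcl2 0.16 without mouse 14. In the colon Cxcl2 became -0.89 in mice numbered 11 and above, Cxcl5 0.030 with the replicate block, Cxcl1 0.40 and Cxcl5 1.49 without mouse 14, and Cxcl1 0.20 and Cxcl5 1.69 without mice 14 and 15. In untreated mice the replicate block gave 0.071 for submucosal Cxcl2 between regions and -0.035 for colon Cxcl1 between plexuses.

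Leaving out single libraries, uncalled values changed sign within these ranges. Genotype response: Cxcl2 -1.23 to 1.25 and Cxcl5 -1.44 to 1.19 in the small intestine, Cxcl5 -3.95 to 1.31 in the colon. Region response: Cxcl2 -1.16 to 0.62 at 2 h (the fitted value of Cxcl5 there, not given because its PBS libraries were at or under 3 counts, also changed sign, without colon PBS replicate 1 and with DESeq2), wild-type Cxcl5 -2.01 to 3.21, knockout Cxcl2 -1.38 to 0.76 and Cxcl5 -1.93 to 0.84. Genotype after PBS: Cxcl1 -1.74 to 1.30, Cxcl2 -2.34 to 0.15 and Cxcl5 -2.16 to 0.47 in the small intestine, and -1.62 to 0.41, -0.77 to 2.65 and -3.76 to 1.51 in the colon. Untreated regions: myenteric Cxcl5 -4.41 to 5.53, submucosal Cxcl2 -0.83 to 0.21 and Cxcl5 -0.10 to 2.02. Untreated plexuses: colon Cxcl1 -0.23 to 0.44. Cxcl3 throughout and Cxcl5 without LPS lay at or near 0 counts in most libraries, so small differences in them were not detectable.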
